A study of Homo sapiens with 96 samples.

Results

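The respiratory chain of mitochondria is built mostly from subunits that are encoded in the nucleus, and the mRNAs of these subunits were followed here in A375 cells, an established human melanoma line that carries an activating BRAF mutation. The genes were taken from a raw count table by their symbols, which begin with NDUFA, NDUFB, NDUFC, NDUFS or NDUFV, SDHA to SDHD, UQCR, COX4 to COX8, or ATP5F, ATP5M, ATP5P or ATP5I. The symbol pattern matched 120 entries, of which 26 numbered copies, 4 antisense or divergent transcripts, 2 readthrough transcripts and 1 pseudogene were left out. This left 87 genes of 44659 entries, with 36 in complex I, 4 in complex II, 9 in complex III, 19 in complex IV and 19 in complex V. NDUFA4 and NDUFA4L2, which bear complex I names, were counted with complex IV.

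Cells were treated for 18 h with DMSO or with MAPKi, a combination of the BRAF inhibitor vemurafenib (500 nM) and the MEK inhibitor cobimetinib (500 nM). They then received vehicle, cycloheximide (CHX, 100 µg/ml, which blocks translation elongation), triptolide (T, 25 µM, which blocks transcription) or TCHX, in which CHX preceded T by 5 min. Cytoplasmic RNA was collected at 0, 1, 3 and 5 h, giving 32 groups of 3 libraries and 96 libraries in all. Only 1 cell line was used, and nothing in the labels says that replicates came from separate cultures, so the p-values measure the spread between these libraries.

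Complexes I and II pass electrons from NADH and succinate to ubiquinone, complex III passes them on to cytochrome c, and complex IV passes them to oxygen. The proton gradient built by complexes I, III and IV drives complex V, the ATP synthase. The core of complexes I, III, IV and V also contains subunits encoded in mitochondrial DNA, so that assembly needs the products of both genomes. The factors NRF1, the ETS family factor GABP and YY1 are known to bind many promoters of nuclear-encoded subunits, and coactivators of the PGC1 family, encoded by PPARGC1A, PPARGC1B and PPRC1, act through some of these factors.

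RefSeq promoters (GRCh38.p14) were matched by symbol for 69 of the 87 genes, and the 250 bases before each start were searched on both strands for the 8 letters most often given for each factor. The NRF1 letters GCGCATGC (GCATGCGC on the other strand) stood in 9 of the 57 promoters of subunit genes that were tested and matched (15.8%), against 4.75% of the promoters of all genes tested and 2.81% of all 27305 promoters. Both forms of the NRF1 letters overlap when the site is GCGCATGCGC, and such a promoter was counted once. The ETS letters CCGGAAGT (ACTTCCGG) stood in 9 of the 57 (15.8%), against 6.81% and 3.64%, and the YY1 letters AAGATGGC (GCCATCTT) in 1 of the 57 (1.75%), against 1.84% and 1.37%. These are matches of letters and not measured binding sites. The following windows show 3 genes whose mRNA was higher under MAPKi (COX6A1, COX8A and UQCRQ) and the gene with the largest decrease (NDUFS6), each read 5′ to 3′ on the strand of the gene, with the matched letters in capitals.
COX6A1 (chr12:120437875-120437922, plus strand, NRF1 letters): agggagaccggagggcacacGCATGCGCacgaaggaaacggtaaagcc
NDUFS6 (chr5:1801341-1801388, plus strand, NRF1 letters): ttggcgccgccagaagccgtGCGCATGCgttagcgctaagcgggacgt
COX8A (chr11:63974581-63974619, plus strand, ETS letters): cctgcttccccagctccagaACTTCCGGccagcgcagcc
UQCRQ (chr5:132866568-132866615, plus strand, ETS letters): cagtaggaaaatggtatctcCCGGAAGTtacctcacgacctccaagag
Among the genes whose mRNA was called higher under MAPKi, 6 of 41 matched promoters held the NRF1 letters (14.6%) and 7 of 41 the ETS letters (17.1%). Among the tested genes that were not called higher, the counts were 3 of 16 (18.8%) and 2 of 16 (12.5%).

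The libraries held 2381351 to 12520154 counts each, with a median of 7143396, and replicates correlated at 0.953 to 0.987. The melanocyte markers summed to 623 to 1011 CPM (counts divided by the scaled size of the library) in the DMSO libraries of all arms and to 2104 to 3792 in the MAPKi libraries, whereas the markers of keratinocytes, fibroblasts, endothelial cells and leukocytes summed to 2.13 to 7.21 and to 3.11 to 12.9 CPM. Most of the melanocyte difference came from 1 of the 8 markers, the pigment enzyme DCT, with a mean of 49.9 ± 8.27 CPM in the DMSO vehicle libraries and 1944 ± 389 in the MAPKi vehicle libraries (SD, n = 12). The transcription factors MITF and SOX10 went from 249.9 to 380.2 and from 202.9 to 338.5 CPM, S100B went from 302.5 to 222.6, and TYR, with at most 9 counts in a library, did not pass the filter on low counts. The entries RNR1 and RNR2, taken here as ribosomal RNAs, took 1.93% to 7.12% of the counts of a library. Nothing in the labels says whether these are ribosomal RNAs of mitochondria, so their share is not read as a technical measure alone. Of 26 symbols tried for the subunits encoded in mitochondrial DNA, 0 were in the table, so only the nuclear part of the chain could be followed.

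A total of 72 subunit genes passed the filter on low counts that was applied to all genes, among 14948 genes tested. These were 32 of complex I, 3 of complex II, 8 of complex III, 11 of complex IV and 18 of complex V, and 65 of the 72 had a mean of at least 10 CPM. All CPM values are scaled by the TMM factors, and since the libraries read 3′ ends, a CPM value does not grow with the length of the gene. The following 5 genes had the highest mean levels at 0 h over both pretreatments. UQCRH, a hinge protein of complex III, had 988 ± 82.4 CPM in DMSO and 1051 ± 62.6 in MAPKi (SD, n = 3). UQCRQ, another small subunit of complex III, had 848 ± 23.6 and 1130 ± 78.3 CPM. UQCRB, which contributes to the ubiquinone binding region, had 696 ± 17.1 and 1093 ± 34.7 CPM. ATP5MC3, 1 of 3 genes for the same c-ring protein of ATP synthase, had 801 ± 117 and 978 ± 76.2 CPM, and COX4I1, the common isoform of the largest nuclear-encoded subunit of complex IV, had 657 ± 50.3 and 930 ± 36.7. ATP5MG, a small membrane subunit of ATP synthase, came next, with 687 ± 35.0 and 812 ± 77.1 CPM, and its DMSO level differed from those of UQCRB and COX4I1 by less than 1 SD. The order of these genes differed between pretreatments, and in MAPKi the ranges of 1 SD of UQCRH, UQCRQ and UQCRB overlapped.

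Among the 15 genes that did not pass were the tissue isoforms COX4I2, COX6A2, COX6B2, COX7A1, COX7B2, COX8C and NDUFA4L2. The isoforms COX4I2, COX6A2, COX7A1 and COX8C had no count in any of the 96 libraries, so that 0 counts per library allow at most 3 counts each, and COX6B2 had 6 counts in total. For COX4, COX6A, COX6B, COX7A, COX7B, COX8 and NDUFA4, nearly all counts therefore came from the common isoform. The other 8 genes that did not pass are ubiquitous subunits: SDHB, COX5B, NDUFA3, NDUFA6, NDUFB10, NDUFS3, UQCRC2 and the ATP synthase inhibitor ATP5IF1. Their totals over the 96 libraries ran from 15 counts for ATP5IF1 to 294 for UQCRC2. The numbered copies of gene names held 0.0487% of all counts, and why these entries were near 0 was not tested. They could not be measured in these libraries, and no statement about them is made. Since ubiquitous subunits were near 0 as well, 0 counts of a tissue isoform need not mean that its mRNA was absent.

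The first comparison asks how subunit mRNAs differed after MAPKi, with the 12 vehicle libraries of each pretreatment (4 time points of 3 libraries). Most subunit mRNAs were higher under MAPKi, and complex IV stood highest. In the edgeR quasi-likelihood test, 50 of the 72 genes were called higher (adjusted p under 0.05) where 36.2% of all genes tested were called higher, and 2 were called lower where 32.9% of all genes were. The median log2 difference was 0.27, or 1.21-fold, and the medians of the 3 replicate numbers were 0.29 ± 0.07 (SD, n = 3), whereas the median of all genes was 0.06. Of the 65 genes with at least 10 CPM, 48 were called higher and 2 lower. The genes together took 1.66% to 1.89% of all counts in the DMSO vehicle libraries and 2.28% to 2.55% in the MAPKi vehicle libraries, without overlap. The ribosomal RNA share was also higher under MAPKi, with group means of 3.96% to 4.78% against 2.79% to 3.17%, and the part of this share in the difference was not tested. In bulk RNA, a change in the mixture of cell states and a change in each cell cannot be told apart.

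**Figure D1:**
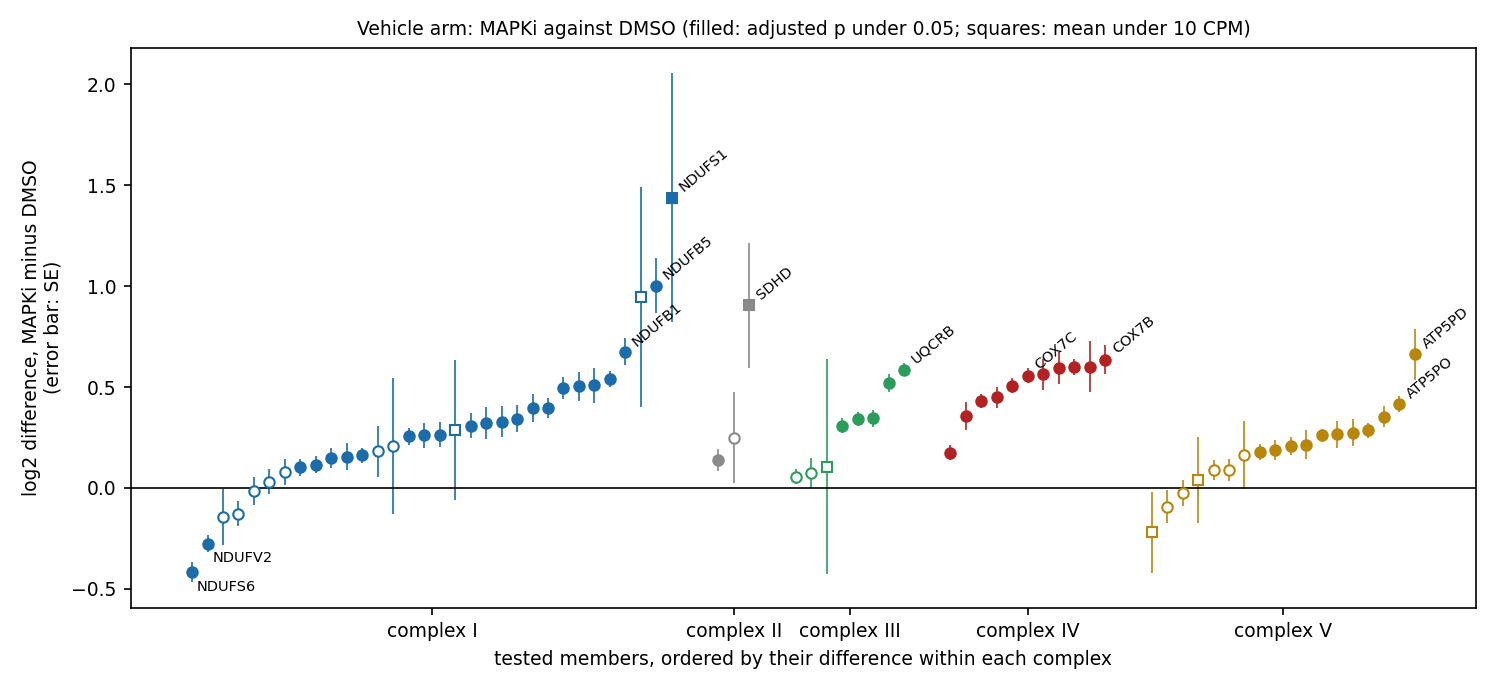
Each point is the log2 difference of 1 tested subunit mRNA between MAPKi and DMSO in the vehicle arm (y axis, error bar: SE), ordered within each complex along the x axis. Filled points passed an adjusted p of 0.05 and squares mark genes with a mean under 10 CPM. All 11 genes of complex IV lie above 0, between 0.17 and 0.64, and only NDUFS6 and NDUFV2 among filled points lie below 0.

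In complex IV, 11 of 11 tested genes were called higher, with a median log2 difference of 0.56. COX7C, a small subunit that lies in the inner membrane, had 536 CPM in the lowest, 563 in the median and 616 in the highest of the 12 DMSO libraries, against 761, 840 and 888 in MAPKi. It was 1.47-fold higher (log2 0.56, SE 0.04, edgeR adjusted p = 3.55e-23). COX7B had 164, 206 and 242 CPM against 251, 322 and 374 (log2 0.64, SE 0.07), and COX8A had 405, 443 and 461 against 603, 644 and 758 (log2 0.60, SE 0.04). For COX7C, COX7B and COX8A every MAPKi library lay above every DMSO library. The other common isoforms rose as well: COX4I1 by 0.45 (SE 0.05), COX6A1 by 0.56 (SE 0.08), COX6B1 by 0.43 (SE 0.04), COX7A2 by 0.51 (SE 0.04) and NDUFA4 by 0.59 (SE 0.08) on the log2 scale. COX7A2L, which is related to COX7A2 and takes part in joining complexes III and IV, rose by 0.36 (SE 0.07). COX5A, a matrix-facing subunit, had the smallest increase of the complex, from 229, 256 and 295 CPM to 259, 292 and 315 (log2 0.17, SE 0.04), and its groups overlapped.

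In complex III, 5 of 8 tested genes were called higher, with a median of 0.33. UQCRB had 657, 705 and 770 CPM in DMSO against 989, 1059 and 1161 in MAPKi, without overlap (log2 0.59, SE 0.03, edgeR adjusted p = 2.56e-27). UQCRC1, a core protein on the matrix side, had 174, 189 and 201 CPM against 236, 270 and 310 (log2 0.52, SE 0.04), also without overlap. The Rieske iron-sulfur protein UQCRFS1, which carries electrons to cytochrome c1, was not called (log2 0.07, SE 0.07), nor was UQCRH (log2 0.06, SE 0.04). In complex II, SDHA, the flavoprotein that oxidizes succinate, rose by 0.14 (SE 0.05), and the membrane anchor SDHC was not called (log2 0.25, SE 0.23). The other anchor, SDHD, was called (log2 0.90, SE 0.31) on 3 to 66 counts per DMSO library and 10 to 83 per MAPKi library. At 0 h alone its log2 difference had the opposite sign (-0.11, edgeR adjusted p = 0.91), and without replicate 1 it was not called (log2 0.77, adjusted p = 0.12).

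In complex I, 21 of 32 tested genes were called higher and 2 lower, with a median of 0.26. The 2 decreases belong to the hydrophilic arm, where NADH is oxidized. NDUFS6, which holds a zinc ion near the iron-sulfur clusters, had 398, 445 and 500 CPM in DMSO and 272, 313 and 452 in MAPKi, which is 74.8% of the DMSO level (log2 difference -0.42, SE 0.05, edgeR adjusted p = 5.89e-12). NDUFV2, an iron-sulfur subunit that sits beside the flavin site, had 176, 198 and 208 CPM against 144, 159 and 183 (log2 difference -0.28, SE 0.04). For both genes the groups overlapped in a few libraries, and both were lower in all 3 replicate numbers. The flavin subunit NDUFV1 went the other way, from 106, 125 and 165 CPM to 137, 171 and 207 (log2 0.40, SE 0.07).

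Among the genes of complex I with at least 10 CPM, the largest increases were in the membrane arm. NDUFB5 had 40.3, 66.8 and 95.2 CPM in DMSO and 88.8, 141 and 170 in MAPKi (log2 1.00, SE 0.14), with overlap in the lowest MAPKi libraries. NDUFB1 had 151, 198 and 225 CPM against 257, 313 and 340 (log2 0.67, SE 0.07), without overlap. NDUFS1, the largest iron-sulfur subunit, was also called, but had only 0 to 4 counts per DMSO library and 1 to 13 per MAPKi library, so that no fold is given.

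In complex V, 11 of 18 tested genes were called higher and the other 7 were not called, with the smallest median of the 5 complexes, 0.20. The catalytic subunits rose, ATP5F1B by 0.35 (SE 0.05) and ATP5F1A by 0.26 (SE 0.07). ATP5PD, a subunit of the peripheral stalk, had the largest increase, from 60.8, 112 and 135 CPM to 115, 158 and 219 (log2 0.66, SE 0.12), and the groups overlapped. The 3 genes of the c-ring had log2 differences of 0.09 (ATP5MC1, SE 0.05, not called), 0.26 (ATP5MC2, SE 0.03) and 0.27 (ATP5MC3, SE 0.07). Over all complexes, 18 of the 72 genes had all 12 MAPKi libraries above all 12 DMSO libraries, where 10.3% of all genes tested did. These were 7 genes of complex IV, 5 of complex III, 4 of complex I and 2 of complex V. No subunit gene had all MAPKi libraries below all DMSO libraries, where 13.1% of all genes did.

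Some subunit mRNAs varied more between replicates than others, which widens their errors. Among the 65 genes with at least 10 CPM, the SD of log2 CPM within groups had a median of 0.152, against 0.194 for the 8549 genes at that level, and ranged from 0.0682 to 0.893. The SDs of NDUFB3 (0.893) and SDHC (0.637) exceeded 0.5. The deviations of SDHC from its group means correlated with library depth at r = 0.867 over the 96 libraries, a description of libraries that share their groups. Deviations of 15 other subunit genes (23.4%) followed those of SDHC at r of at least 0.8, against 529 of all genes at that level (6.19%), and NDUFB5 and ATP5PD were among the 15. With the log2 total count as a covariate, NDUFB5 was at 1.07 and ATP5PD at 0.72.

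Related gene lists were read against the same 36.2% of all genes called higher and 32.9% called lower under MAPKi. Of 13 tested genes of the tricarboxylic acid cycle, 9 were called higher and 1 lower, with a median of 0.34. OGDH, a dehydrogenase of the cycle, rose by 0.97 on the log2 scale and IDH3G by 0.82, and DLST fell by 0.15. Of 51 tested assembly factors, 9 were called higher (17.6%) and 24 lower (47.1%), with a median of -0.13. COA7 fell by 1.29, NDUFAF2 by 0.95 and NDUFAF4 by 0.79, whereas COA5 rose by 0.94, FMC1 by 0.84 and PET100 by 0.49. Cytochrome c, encoded by CYCS, fell by 0.56 (SE 0.06), and cytochrome c1, encoded by CYC1, rose by 0.16 (SE 0.05).

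Of 14 regulators of mitochondrial gene expression, 3 were called higher and 10 lower, with a median of -0.72. The coactivator PPARGC1A rose from 9.64 ± 2.47 to 62.1 ± 20.7 CPM (SD, n = 12; log2 2.67, SE 0.12), while its relatives PPARGC1B and PPRC1 fell by 2.64 and 1.45. The nuclear receptor ESRRA rose by 0.89 (SE 0.20), and ESRRG rose by 2.36 but stayed under 1 CPM on average in both pretreatments. TFB1M, a methyltransferase of the mitochondrial ribosome, fell by 1.30. NRF1 itself fell by 0.39 (SE 0.10), and GABPA was not called (log2 -0.08, SE 0.19). These lists are described by their counts, and their link to the subunit mRNAs was not tested.

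The second comparison asks how much subunit mRNA was left after transcription was blocked. The counts were scaled to 36 stable genes, none of which is a subunit gene. The mean of triptolide at 3 and 5 h was set against vehicle at 0 h. The 36 genes were chosen from these same libraries, because their share of counts rose at least 1.1-fold at 3 and 5 h of T in every replicate. Scaling to genes chosen for a rise under T lowers the other genes. The percentages left and the counts of genes called higher or lower therefore depend on this choice. Subunit mRNAs kept a higher median share of their initial level than all genes in both pretreatments. In DMSO, the median subunit mRNA was at 93.6% ± 1.37 of its initial level after 5 h (SD, n = 3), against 67.5% ± 1.45 for all 10673 genes with at least 10 normalized counts initially. In MAPKi the values were 84.7% ± 2.85 and 60.9% ± 2.21. In DMSO, 6 of 72 subunit genes were called lower and 0 higher, where 48.7% of all genes were called lower and 1.30% higher. In MAPKi, 21 were called lower and 0 higher, where 56.1% and 1.28% of all genes were. Neither edgeR at an unadjusted p under 0.05 nor DESeq2 called a subunit gene higher in either pretreatment. Without replicate 1, 2 or 3, 3, 4 and 2 genes were called lower in DMSO and 13, 9 and 25 in MAPKi.

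These levels depend on the scaling. Under TMM scaling the all-gene median moved by 0.46 in DMSO and 0.62 in MAPKi on the log2 scale, to -0.01 and 0.04, and 52 and 57 subunit genes were called higher. The shares of all genes above belong to the stable genes, and those under TMM are not given here. Relative to the median of all genes, the median subunit was 0.39 higher in DMSO and 0.43 higher in MAPKi with the stable genes, and 0.40 and 0.43 higher with TMM. A change of scaling moves every gene by nearly the same log2 amount, so the likeness of these values is not a check of the result. The change in MAPKi was then compared with the change in DMSO. The edgeR test called 0 of the 72 genes in either direction, with 5 lower and 0 higher at an unadjusted p under 0.05, and DESeq2 called 1 lower and 0 higher. Among all genes, 2.76% were called lower and 0.415% higher, and the median difference was -0.09 for subunits and -0.11 for all genes.

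**Figure D2:**
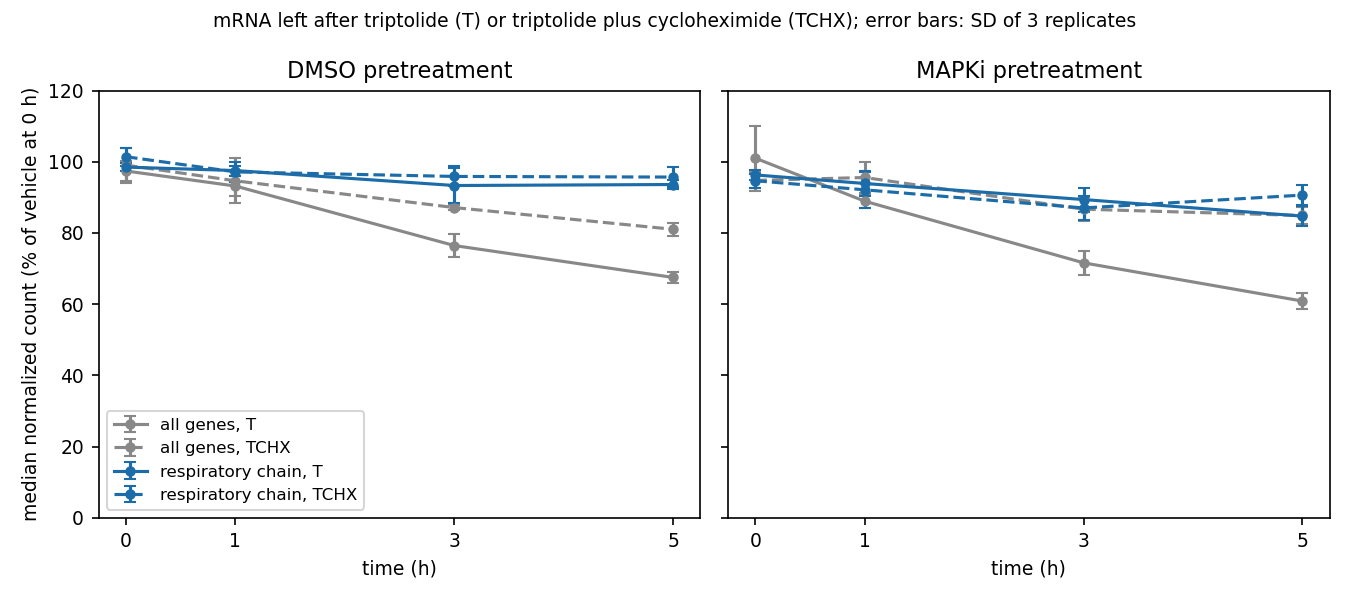
The y axis gives the median normalized count as a percentage of vehicle at 0 h, and the x axis gives hours of triptolide (T, solid) or triptolide with cycloheximide (TCHX, dashed) for the 68 subunit genes with at least 10 normalized counts initially and for all 10673 such genes (error bars: SD of 3 replicates). At 5 h of T the subunits stand at 93.6% in DMSO and 84.7% in MAPKi, above the 67.5% and 60.9% of all genes.

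NDUFV3, an accessory subunit of the NADH-oxidizing module of complex I, had the largest decrease among the subunits that were called. Its normalized counts were 700, 573 and 534 in the DMSO vehicle libraries at 0 h and 345, 342 and 289 after 5 h of T. In MAPKi they were 666, 641 and 533 and then 237, 204 and 264. The T libraries at 5 h lay below the vehicle libraries at 0 h in both pretreatments, and 54.4% ± 5.22 of the mRNA was left in DMSO and 38.9% ± 9.29 in MAPKi. The log2 changes over 3 and 5 h were -0.71 (SE 0.13) and -1.15 (SE 0.12). UQCRFS1 changed by -0.36 (SE 0.12) and -0.64 (SE 0.12), with counts of 1251, 1091 and 1104 at 0 h and 666, 573 and 586 after 5 h of T in MAPKi. Other genes with large calls were NDUFC2 (-0.33), SDHA (-0.27) and NDUFA5 (-0.21) in DMSO, and NDUFA8 (-0.47) and NDUFA5 (-0.41) in MAPKi. Complex IV mRNAs, which were the most raised under MAPKi, had 94.1% ± 3.36 left in DMSO and 88.1% ± 2.83 in MAPKi at 5 h.

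The third comparison, TCHX against T at 3 and 5 h, asks how much mRNA was kept when translation was blocked as well, a measure of decay that needs translation. All-gene medians rose by 0.23 in DMSO and 0.34 in MAPKi, but subunit mRNAs had medians of 0.02 and 0.01. Subunit mRNAs had lost little under T alone, with medians of 93.6% in DMSO and 84.7% in MAPKi left at 5 h. For all genes with at least 10 normalized counts initially, these were 67.5% and 60.9%. Since the same T libraries are used, the low subunit values here in part restate the second comparison. In DMSO, 2 of 72 subunit genes were called higher (NDUFV3 and UQCR11) and 0 lower, where 28.4% of all genes were called higher and 0.468% lower. In MAPKi, 11 were called higher and 0 lower, where 41.4% and 0.535% were. The edgeR test gave 0 and 3 lower genes at an unadjusted p under 0.05 in DMSO and MAPKi, and DESeq2 gave 0 in both. In MAPKi 7 genes were called higher without replicate 2, and in DMSO 1 without replicate 1 or without replicate 3. Under TMM scaling, which moved the all-gene medians by -0.21 and -0.36, to 0.02 and -0.03, 26 and 55 subunit genes were called lower. The share of all genes called lower under TMM is not given here. Relative to all genes, the median subunit was lower by 0.21 in DMSO and 0.32 in MAPKi with the stable genes and lower by 0.21 and 0.33 with TMM. These values must be alike, since scaling moves all genes together.

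An exception was NDUFV3. Its normalized counts at 5 h were 475, 501 and 579 with TCHX in DMSO and 501, 467 and 589 in MAPKi. All of these lay above the T libraries of that time. The log2 difference over 3 and 5 h was 0.47 (SE 0.10) in DMSO and 0.91 (SE 0.11, edgeR adjusted p = 7.61e-12) in MAPKi. In MAPKi, UQCRFS1 (0.43, SE 0.10), SDHA (0.36, SE 0.08) and ATP5ME (0.33, SE 0.10), a membrane subunit of ATP synthase, were also called. NDUFB9 was called at 1.70, but this rests on 1 library: its raw counts at 5 h of TCHX were 10, 962 and 8. The difference between pretreatments was called for 0 subunit genes by edgeR, where 6.82% of all genes were called higher and 0.294% lower. At an unadjusted p under 0.05, 5 were higher and 1 lower, and DESeq2 called 3 higher and 0 lower.

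The study's own measure of this kind, the TDD index, is the count kept in TCHX over T as a fraction of the initial count. Over 68 subunit genes the median index stood at 0.012 ± 0.030 for DMSO and at 0.022 ± 0.040 for MAPKi (SD, n = 3). For all 10673 genes it stood at 0.122 ± 0.034 and 0.185 ± 0.011. The index uses the same T libraries, and subunit mRNAs had lost little under T, so it is not a separate result. In a linear model with time and replicate, 1 subunit gene increased at an unadjusted p of at most 0.05 and 0 decreased, where 14.7% of all genes increased and 1.36% decreased. This gene was SDHA, at 0.019 ± 0.055 in DMSO and 0.228 ± 0.063 in MAPKi, and it was higher in 3 of 3 replicates but did not pass the adjustment over all genes in this linear model. After adjustment 0 subunit genes and 13 of all genes passed. These counts turn with the scaling: with TMM, 0 subunit genes increased and 15 decreased, with a median difference of -0.13, and with total counts 0 increased and 7 decreased. For these scalings the shares of all genes are not given here.

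The last comparison, CHX against vehicle without triptolide under TMM scaling, asks how subunit mRNAs changed when translation alone was blocked. Many subunit mRNAs fell relative to other mRNAs, and more of them did after MAPKi. TMM scaling holds the all-gene median near 0, so a change in the amount of mRNA per cell was not measured. In TCHX against T, this scaling moved the all-gene median by -0.21 in DMSO and -0.36 in MAPKi. Relative to the median of all genes, the median subunit was lower by 0.12 in DMSO and by 0.34 in MAPKi. The relative value was also negative with TCHX against T. There, under the stable genes, the subunit medians were 0.02 and 0.01 while the all-gene medians rose. The likeness thus covers the relative value only, and not a decrease of the subunit mRNAs themselves. In DMSO, the edgeR test called 27 of 72 subunit genes lower, where 14.9% of all genes were called lower, and 0 higher, where 17.3% were. No subunit gene was higher in DMSO at an unadjusted p under 0.05 or by DESeq2. In MAPKi, 50 were called lower and 1 higher, where 14.0% and 15.9% of all genes were. The median log2 differences were -0.13 in DMSO and -0.35 in MAPKi, against 0.00 and -0.01 for all genes. The change in MAPKi was more negative than in DMSO for 14 subunit genes and more positive for 0, where 5.95% and 5.01% of all genes were called. The median of this difference was -0.24, and it was -0.23 ± 0.02 over the 3 replicate numbers (SD, n = 3). No subunit gene was more positive at an unadjusted p under 0.05 or by DESeq2. These counts rest on single replicates more than the medians do. In DMSO 12 genes were called lower without replicate 2 and 5 without replicate 3, and the difference was called for 1 gene without replicate 1 and 7 without replicate 3. With library totals in place of TMM, 4 genes were called for the difference.

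The relative decrease appeared by 3 h. In MAPKi the median subunit was at 0.05 ± 0.04 at 0 h, -0.07 ± 0.05 at 1 h, -0.27 ± 0.04 at 3 h and -0.41 ± 0.06 at 5 h relative to vehicle (log2, SD, n = 3). In DMSO it was at 0.05 ± 0.05, -0.02 ± 0.08, -0.12 ± 0.06 and -0.13 ± 0.04. The subunit genes together held 2.51% ± 0.10 of counts at 0 h of CHX and 1.88% ± 0.04 at 5 h in MAPKi, and 1.79% ± 0.01 and 1.51% ± 0.05 in DMSO. Over the same hours of CHX the ribosomal RNA share went from 3.86% to 3.51% in MAPKi and from 3.04% to 2.04% in DMSO, and its part in the result was not tested. The MAPKi vehicle libraries at 3 and 5 h are the reference here and also belong to the first comparison, so the increase under MAPKi and the decrease under CHX share libraries.

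**Figure D3:**
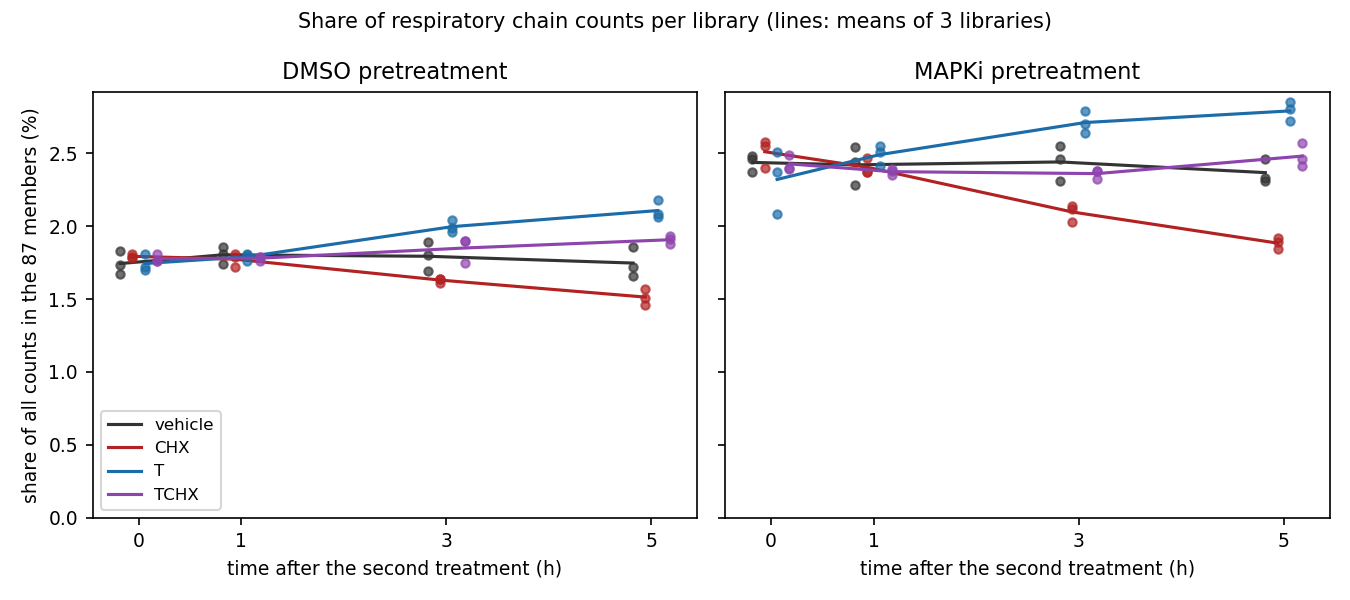
The y axis gives the share of all counts that fell on the 87 subunit genes in each library (points, lines through the means of 3 libraries), and the x axis gives hours after the second treatment. Under CHX the MAPKi share falls to 1.88% at 5 h, while under T it is 2.79% in MAPKi and 2.11% in DMSO.

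By complex, the CHX decrease in MAPKi was called for 11 of 11 genes of complex IV (median -0.49), 7 of 8 of complex III (-0.36), 14 of 18 of complex V (-0.36) and 18 of 32 of complex I (-0.28). In DMSO, the counts were 5 of 11, 5 of 8, 9 of 18 and 8 of 32. SDHA, SDHC and SDHD of complex II were not called in either pretreatment. The difference between pretreatments was called for 7 genes of complex IV (COX5A, COX6B1, COX7A2, COX7B, COX7C, COX8A and NDUFA4), 3 of complex III (UQCRB, UQCRH and UQCR11), 2 of complex V (ATP5F1B and ATP5PF) and 2 of complex I (NDUFS4 and NDUFA10).

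COX7B showed the largest difference of these. At 5 h in MAPKi it had 284, 290 and 337 CPM with vehicle and 183, 210 and 201 with CHX, without overlap. In DMSO it had 167, 164 and 242 CPM with vehicle and 182, 217 and 230 with CHX, which overlapped. The log2 differences over 3 and 5 h were -0.51 (SE 0.10) in MAPKi and 0.06 (SE 0.10) in DMSO, and they differed by -0.57 (SE 0.14, edgeR adjusted p = 0.0029). NDUFA4, which is a subunit of complex IV despite its name, went from 586, 530 and 616 to 334, 371 and 343 CPM in MAPKi, and from 304, 270 and 390 to 281, 287 and 392 in DMSO. Its log2 differences were -0.59 (SE 0.11) and -0.04 (SE 0.11). Deviations of COX7B and NDUFA4 from their group means followed those of SDHC, which went with library depth, at r = 0.675 and 0.778. The DMSO vehicle libraries at 5 h held 4513416, 3719323 and 7675571 counts. The differences of COX7B and NDUFA4 with depth as a covariate are not given here.

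COX7C fell in both pretreatments, from 812, 761 and 811 to 531, 506 and 563 CPM at 5 h in MAPKi and from 580, 553 and 616 to 489, 513 and 515 in DMSO. The libraries of CHX lay below those of vehicle in both, and the log2 difference was -0.49 (SE 0.05) in MAPKi and -0.16 (SE 0.05) in DMSO. COX7A2 fell by 0.52 (SE 0.05) in MAPKi and by 0.15 (SE 0.05) in DMSO, and COX5A changed by -0.46 (SE 0.05) and -0.10 (SE 0.05), the latter not called. NDUFS4, an accessory subunit near the electron input of complex I, changed by -0.26 (SE 0.09) in MAPKi and 0.12 (SE 0.09) in DMSO, the latter not called. Other large decreases in MAPKi were those of ATP5PD (-0.58), ATP5MC3 (-0.53) and COX6A1 (-0.53).

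**Figure D4:**
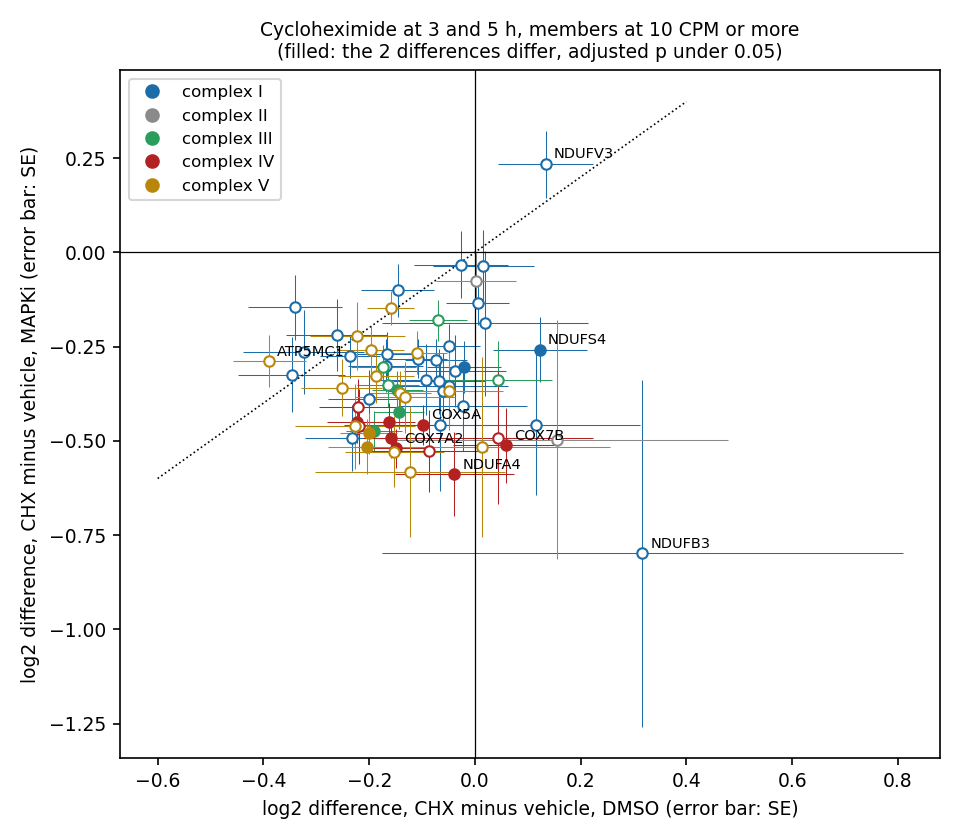
Each point is 1 subunit gene with at least 10 CPM, with its log2 difference between CHX and vehicle over 3 and 5 h in DMSO on the x axis and in MAPKi on the y axis (error bars: SE; dotted line: equal differences). Filled points are the 14 genes whose differences differed between pretreatments. COX7B lies at 0.06 on the x axis and -0.51 on the y axis.

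Some members did not follow. NDUFV3 was the only subunit gene called higher with CHX in MAPKi, with 94.5, 76.7 and 79.3 CPM with vehicle and 103, 85.0 and 86.6 with CHX at 5 h. These libraries overlapped, and the log2 difference over 3 and 5 h was 0.23 (SE 0.09). The 2 genes that were lower under MAPKi differed from each other: NDUFV2 was called lower with CHX in both pretreatments (-0.28 in MAPKi and -0.24 in DMSO, each SE 0.06), and NDUFS6 was called in neither (-0.10, SE 0.07, and -0.15, SE 0.07). In DMSO the largest decreases were those of ATP5MGL (-1.02, under 10 CPM), ATP5MC1 (-0.39), NDUFV1 (-0.35), NDUFS8 (-0.34) and NDUFS7 (-0.32). NDUFV1, NDUFS7 and NDUFS8 lie on the electron path of complex I. ATP5MC1 had 362, 372 and 315 CPM with vehicle and 263, 240 and 220 with CHX at 5 h in DMSO, without overlap.

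**Figure D5:**
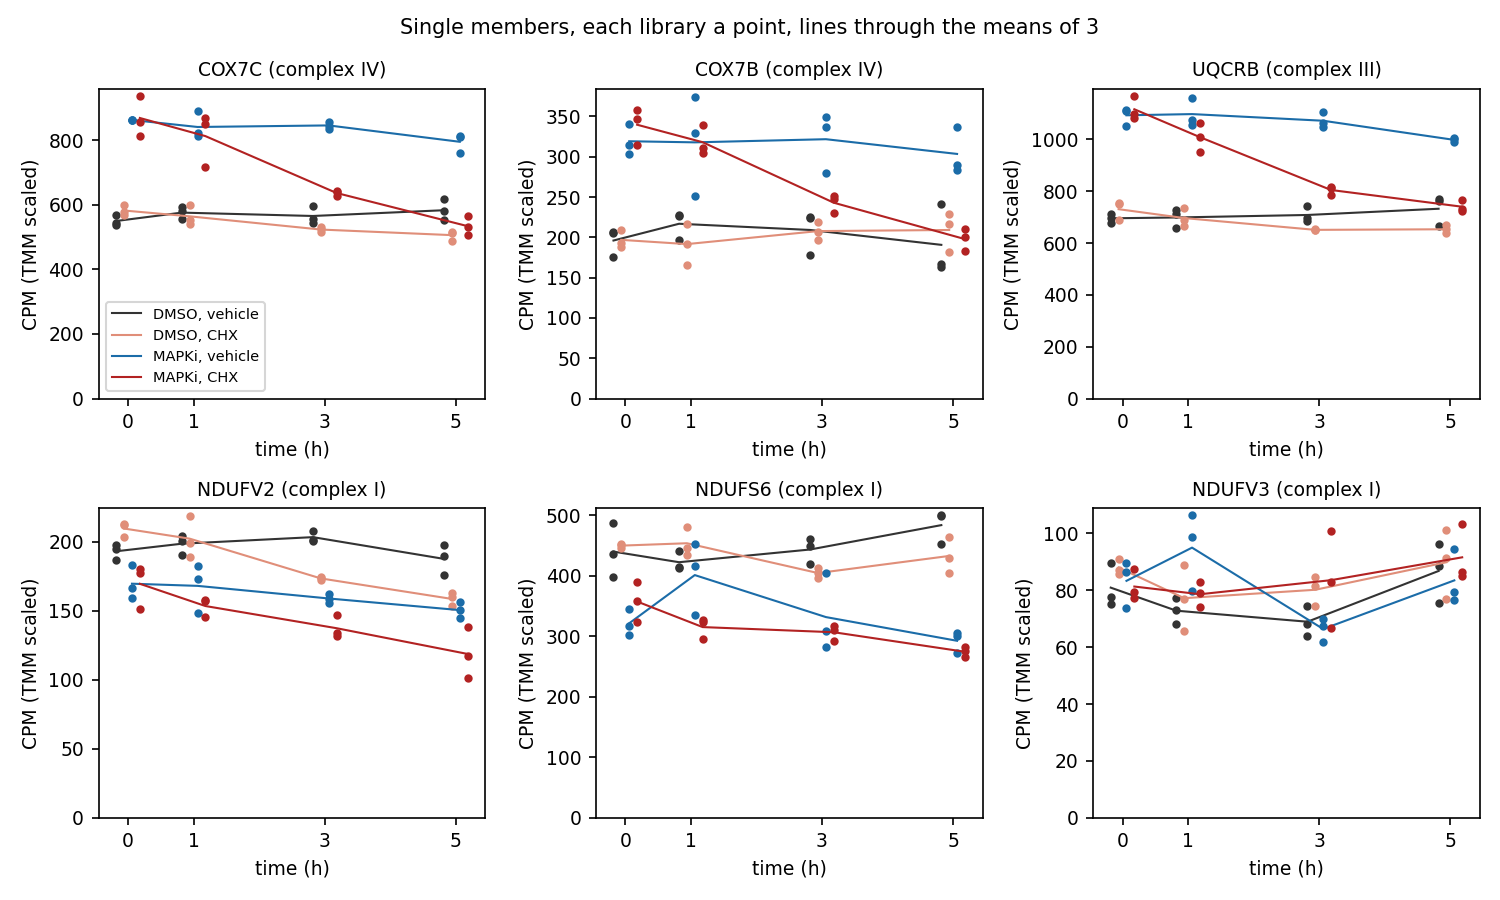
Each panel shows CPM (TMM scaled, y axis) against hours after the second treatment (x axis) for 1 subunit gene, with each library as a point and lines through the means of 3. In MAPKi with CHX (red), COX7C falls to between 506 and 563 CPM and COX7B to between 183 and 210 CPM at 5 h.

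Among the related lists in MAPKi, 8 of 13 genes of the tricarboxylic acid cycle were called lower with CHX (61.5%, where 14.0% of all genes were) and the other 5 were not called, and both cytochrome genes were called lower. Of 14 regulators, 6 were called higher (42.9%, where 15.9% of all genes were) and the other 8 were not called. Of 51 assembly factors, 8 were called higher (15.7%) and 4 lower (7.84%), so that their share of increases was close to that of all genes. The 13 genes of the cycle had a median of -0.21, against 0.04 for assembly factors and 0.12 for regulators.

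The annotation around these genes limits some counts. All 87 genes were placed in GRCh38 gene models, on 22 chromosomes, and 18 overlap a named gene on the same strand and 29 on the opposite strand. The strand setting of the counting is not given in the sources used here, so reads of a gene and of an opposite-strand partner, such as NDUFV2 and NDUFV2-AS1, cannot be told apart. Named pseudogenes exist for 44 of the 72 tested genes, with 4 for COX7C, 4 for COX7B, 2 for NDUFA4 and 17 for COX6C, and reads shared with such copies may be lost or split. NDUFV3 (chr21:42879644-42913304, plus strand) and NDUFS4 (chr5:53560633-53683338, plus strand) have no named pseudogene and overlap no named gene, and NDUFS6 (chr5:1801407-1816048, plus strand) has 1 named pseudogene.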

How the data were processed

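QuantSeq 3′ libraries were prepared from 500 ng of RNA of A375 cells. The deposited table holds raw counts per gene for 96 libraries. Per the study's methods, the authors trimmed reads with fastp 0.20.1, aligned them to GRCh38.p13 with HISAT2 2.2.1 and counted exons with htseq-count 0.13.5. Reads carry no reported molecular identifiers, so intervals and errors cover these libraries only. The total count per library was 2381351 to 12520154, which limits genes with few counts.

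Libraries were grouped by the labels. In R 4.3.3, genes kept by filterByExpr were fitted with edgeR 4.0.16 (quasi-likelihood, 1 mean per group, all 96 libraries), and p-values were adjusted by Benjamini-Hochberg over 14948 genes, with calls at an adjusted p under 0.05. TMM scaling served the comparisons without triptolide. DESeq2 1.42.0 size factors over 36 stable genes served the others. These genes met the study's rule at both 3 and 5 h, in every replicate of both pretreatments. The study words the rule as 3 or 5 h, and read in that way it gave 526 genes, an alternative reported below. The TDD index was tested by a linear model on condition, time and replicate. CPM values are TMM scaled. Tests were two-sided.

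In the text were named, per comparison and direction, the 5 subunit genes with the largest change among those called and changed in that direction in all 3 replicate numbers, besides the most and least abundant, the tissue isoforms, the core subunits and the 3 largest calls per related list and direction. UQCRB, UQCRC1, COX7C, COX8A, NDUFB3, NDUFB9, NRF1, GABPA and the further genes called for a difference between pretreatments were added after their values were seen. A few genes that this rule names are not reported here. The genes and lists were chosen with earlier results of these data known. Scripts were tested on simulated data. Alternatives covered scaling, filter, test (DESeq2), time points, initial level, replicate block, total count as a covariate and each replicate left out. Gene models were those of GENCODE v44.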

Additional observations from a re-analysis of the deposited data

Results flagged for a closer look

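The change of 14 subunit mRNAs with CHX, without triptolide, differed between MAPKi and DMSO in a test of the difference itself (edgeR, adjusted p under 0.05). For all 14 the difference was negative, that is, the change was more negative in MAPKi, where 5.95% of all genes tested were called in this direction. In complex IV the difference was -0.571 for COX7B, -0.55 for NDUFA4, -0.371 for COX7A2, -0.36 for COX5A, -0.334 for COX7C, -0.288 for COX6B1 and -0.228 for COX8A on the log2 scale. In complex I it was -0.381 for NDUFS4 and -0.283 for NDUFA10. In complex III it was -0.282 for UQCRH, -0.279 for UQCRB and -0.218 for UQCR11, and in complex V it was -0.312 for ATP5F1B and -0.28 for ATP5PF. Without replicate 1 only 1 subunit gene was called, and without replicate 3 it was 7, while the median over the 72 tested genes was -0.18 and -0.24.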

How the results depend on the processing

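The alternatives gave 833 values, of which 654 kept their direction and their side of the threshold, 71 kept the direction alone, 90 moved and 18 reversed. Among the comparisons without triptolide, the increase under MAPKi held best, with 36 of 52 calls made in the same direction in all 10 alternatives. The counts were 30 of 51 for CHX in MAPKi, 2 of 27 for CHX in DMSO and 0 of 14 for its difference between pretreatments. In the triptolide comparisons, 0 of 6 and 1 of 21 calls were kept for decay in DMSO and MAPKi, over 13 alternatives. For TCHX against T they were 1 of 2 and 1 of 11, over 12 alternatives. These alternatives include TMM scaling, which moves all genes, so the triptolide counts cannot be ranked against the others. A change of scaling moves all genes nearly alike, so subunit medians relative to all genes moved by less than 0.01, which is not a check of the results. The changes below follow the all-gene median. For the counts of calls below, the shares of all genes called under each alternative are not given here.

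With TMM scaling, decay in DMSO had 52 genes higher, 0 lower and a median of 0.39, with UQCRFS1 at 0.093, NDUFC2 at 0.14, SDHA at 0.19 and NDUFA5 at 0.26. Decay in MAPKi had 57 higher, 1 lower and a median of 0.47, with NDUFA8 at 0.16 and NDUFA5 at 0.22, and the difference of decay had a median of 0.074. TCHX against T had 1 higher, 26 lower and a median of -0.19 in DMSO, with UQCR11 at -0.062, and 2 higher, 55 lower and a median of -0.36 in MAPKi, with SDHA at -0.0067 and ATP5ME at -0.034. Its difference had 5 lower and a median of -0.15, and the TDD index had 0 increased, 15 decreased and a median difference of -0.13.

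With total counts, the MAPKi median was 0.41 (all-gene shift 0.14). Decay had 31 higher, 1 lower and a median of 0.24 in DMSO, with SDHA at 0.040 and NDUFA5 at 0.11, and 20 higher, 1 lower and 0.20 in MAPKi. TCHX against T had 1 higher, 10 lower and -0.13 in DMSO, 3 higher, 34 lower and -0.22 in MAPKi, and 1 lower and -0.074 for the difference. CHX in MAPKi had a median of -0.26, and its difference had 1 higher, 4 lower and -0.11 (all-gene shift 0.13). The TDD index had 0 increased, 7 decreased and -0.050.

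With 526 stable genes chosen at 3 or 5 h, of which 20 are subunit genes, decay in MAPKi had 11 lower and a median of -0.10, TCHX in MAPKi had 7 higher and 3 lower, and the TDD index had 1 decreased. Without a filter, decay had 3 lower in DMSO and 2 higher in MAPKi, TCHX had 4 and 5 lower in DMSO and MAPKi and 2 higher for the difference, and CHX had 16 lower in DMSO and 0 higher in MAPKi. At 5 h alone, the difference of decay had 1 lower, that of TCHX had 3 higher and a median of 0.066, and CHX had 15 lower in DMSO, 0 higher and -0.42 in MAPKi and -0.31 for the difference. With triptolide at 0 h as the initial level, decay in MAPKi had 1 higher and the difference 2 lower. With the log2 total count as a covariate, which was added after the data were seen like the 526 genes, the difference of decay had 1 lower, TCHX in MAPKi had 2 lower, its difference 2 higher and the difference of CHX 26 lower. DESeq2 gave 1 lower for the difference of decay, 4 higher for TCHX in DMSO and 3 higher for its difference. At 0 h alone, SDHD under MAPKi was at -0.11.

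The headers of the count columns give all libraries of the same replicate number a shared prefix. They do not say what it stands for, or whether these libraries were handled together. Deviations of libraries with the same number correlated at -0.309 to 0.334 (median 0.0174), which is too uneven to treat the numbers as pairs. Even so, 64 of 96 libraries correlated best with their own number, and replicate 1 had the highest ribosomal RNA share in 28 of 32 groups, a hint from the data of an effect shared by libraries of 1 number. With a replicate block, 1 gene was higher for the difference of TCHX, and without it the TDD index had 2 decreased.

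Leaving out each replicate in turn gave the following ranges. Decay had 2 to 4 lower with medians of -0.13 to -0.041 in DMSO, 9 to 25 lower in MAPKi and medians of -0.19 to -0.066 for the difference. TCHX had 1 to 2 higher in DMSO, 7 to 9 higher and 0 to 3 lower in MAPKi, and 0 to 1 higher with medians of -0.0017 to 0.044 for the difference. CHX had 5 to 20 lower with medians of -0.16 to -0.073 in DMSO (5 without replicate 3 and 12 without replicate 2), 0 to 1 higher in MAPKi, and 1 to 10 lower with medians of -0.25 to -0.18 for the difference. The TDD index had 0 to 4 increased and 0 to 1 decreased. The causes of these changes were not tested, and genes with few counts, such as NDUFS1 and SDHD, are limited by depth.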
